A study of Raphanus raphanistrum and Isatis lusitanica and Arabidopsis thaliana with 13 samples.

Results

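The leaf transcriptome of *Isatis lusitanica*, a Brassicaceae species in which the study could not find the histone demethylase gene *IBM1*, is described here from 3 RNA-seq libraries. The members are all gene models listed in the 3 transcript tables of this species, which is 41829 models out of 87893 transcripts listed for the 2 species of the series. The series holds 13 samples, of which 6 are RNA-seq and 7 are MethylC-seq. The MethylC-seq samples were not used here. The 3 libraries came from leaves of plants 8 weeks old, grown at 23 °C with 15 h of light per day. The genotype and treatment labels read N/A, and nothing says whether the replicates were separate plants. All 3 libraries therefore form 1 condition, and no test between conditions can be made.

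*IBM1* encodes a jumonji (JmjC) domain protein that removes H3K9me2, a silencing mark, from the bodies of transcribed genes. In *Arabidopsis thaliana* it counteracts the H3K9 methyltransferase KYP and the DNA methyltransferase CMT3, which reinforce each other. In *A. thaliana* mutants that lack it, many gene bodies gain non-CG methylation. Leaf mRNA of green plants is typically dominated by a small number of photosynthesis transcripts, while most genes are transcribed at low level. The tables name each model by a scaffold number, a model number and a set of tags, and pair none of them with a gene name. Neither the absence of *IBM1* nor the leaf label could therefore be checked on marker genes, and the abundant models are described by identifier, length and scaffold.

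Replicate 1 held 21993142 estimated counts, replicate 2 held 22808396 and replicate 3 held 5700441. Replicate 3 stood apart in more than its depth, because its counts lay more on long models. The share of counts on models of at least 3000 bases was 3.66% there, against 1.74% for replicate 1 and 1.98% for replicate 2. Of 20230 models with a mean of at least 1 TPM, a length-corrected count that sums to the same total in every library, replicate 3 gave the highest TPM in 65.9%, replicate 1 in 20.6% and replicate 2 in 13.5%. This mean includes replicate 3, so some of the 20230 may have passed through a high value there. The median SD of log2(TPM + 1) between the 3 libraries was 0.48 over these models, and 0.25 between replicates 1 and 2 alone. Values are therefore given for each library.

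A small set of models held most of the leaf mRNA. The 10 most abundant models of a library took 19.9% of TPM in replicate 1, 25.7% in replicate 2 and 19.9% in replicate 3, a mean of 21.8% ± 3.36 (SD, n = 3). The most abundant 1% of models, 418 in each library, took 60.5% ± 4.40 (SD, n = 3). In replicates 1, 2 and 3, 189, 116 and 268 models sufficed for 50% of TPM, and 4078, 3698 and 5820 models for 90%. The rest of the 41829 models thus shared the last 10% of TPM in every library. Replicate 3 spread its mRNA over the most models and replicate 2 over the fewest.

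**Figure D1:**
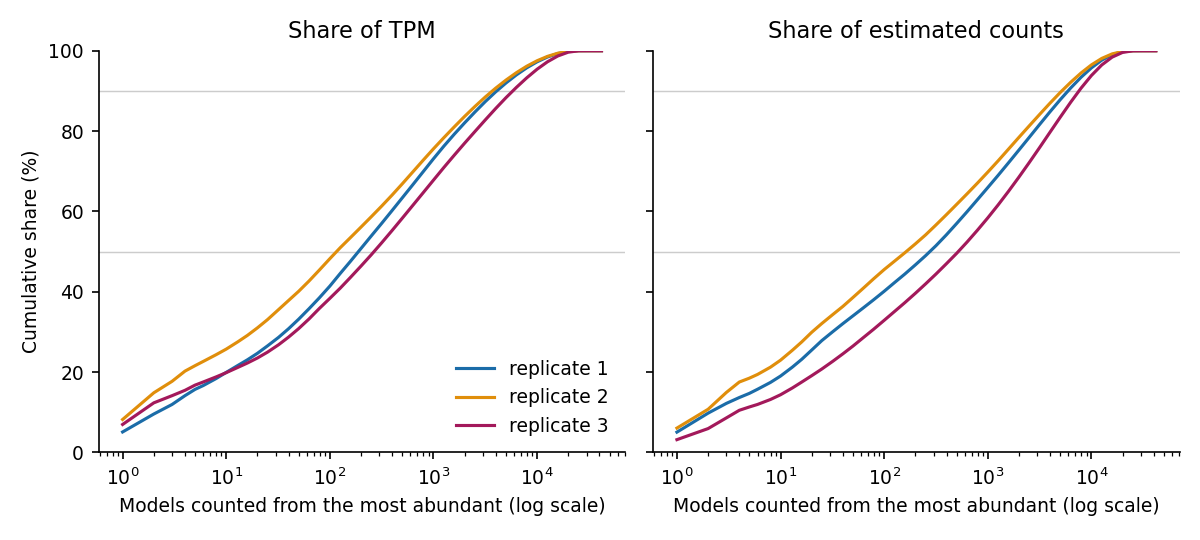
The cumulative share of TPM (left) and of estimated counts (right), in percent, is plotted against the number of models counted from the most abundant one on a log axis, with 1 line per library. The line at 50% was reached at 116 to 268 models for TPM and at 164 to 520 models for estimated counts, and the line of replicate 2 lies above those of the other libraries through most of its course.

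Grouped by mean TPM over the 3 libraries, 121 models stood at 1000 TPM or more and took 44.2% ± 5.29 of TPM (SD, n = 3). A further 1165 models between 100 and 1000 TPM took 30.4% ± 2.35, and 6773 models between 10 and 100 TPM took 20.1% ± 2.40. The 12171 models between 1 and 10 TPM, the largest of these groups, took 4.91% ± 1.51. Below 1 TPM but above 0 stood 8734 models, 20.9% of all. The level classes thus ran opposite in size and in share, since each step down in level as far as 1 TPM held more models and less mRNA.

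The 2 most abundant models lay far above the others. Model g25656, of 171 bases and alone on its scaffold, had 50965, 66457 and 69641 TPM in replicates 1, 2 and 3. Model g25974, of 383 bases and also alone on its scaffold, had 44650, 82031 and 53816 TPM. Their ranges overlapped, and each was the higher of the pair in some library. Model g33432 (837 bases, scaffold 67) followed at 23766, 25453 and 17849 TPM, and g28561 (933 bases, scaffold 275) at 21984, 28520 and 12938 TPM. These 2 models did not reach the lowest value of the leading pair in any library, and their own ranges overlapped. Model g31355 (422 bases, scaffold 13) came next at 14159 ± 1258 TPM (SD, n = 3). Its 3 values lay between 13335 and 15607 TPM, a narrow range beside those above it. Model g59143 (321 bases, scaffold 143) varied least of the 10, with 7421, 7253 and 6879 TPM. Model g44663 (302 bases) varied most, with 9524, 6533 and 2946 TPM, which was lowest in replicate 3. The other 3 were g28641, g48066 and g33638, at means of 9225, 7911 and 5643 TPM. No function is given here for any of them, since no source used here annotates these identifiers.

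**Figure D2:**
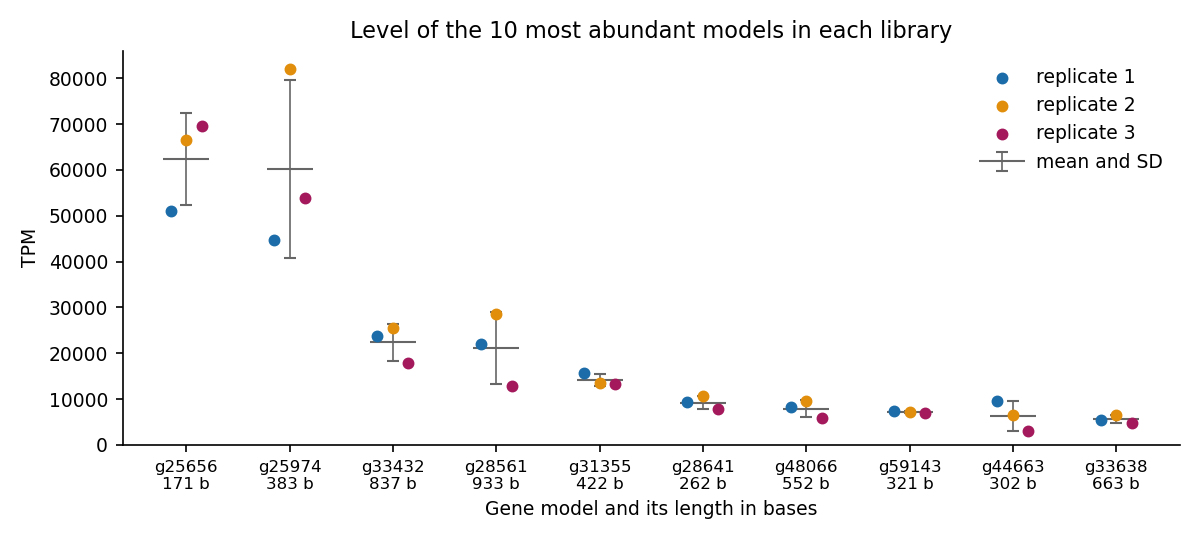
TPM on a linear axis is shown for the 10 models with the highest mean, with 1 point per library and the mean and SD over 3 libraries in grey. The leading pair lies between 44650 and 82031 TPM, and all other values lie at or below 28520 TPM.

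The order of the abundant models depended on whether length was divided out. TPM divides each count by the effective length, the number of positions at which a sequenced fragment can start, and for the 171 bases of g25656 this was 28.8 in replicate 1. In CPM, which scales counts to the library total without regard to length, g25656 ranked 16th, with 0.573% of all counts on average. The first place in CPM went to g28561 with 4.59% of counts, followed by g33432 with 4.20% and g25974 with 3.12%. Model g13180, of 1425 bases, ranked 4th in CPM with 1.98% of counts and 11th in TPM. The top 418 models by mean TPM had a median length of 342 bases and 41.4% of them were under 300 bases, against a median of 645 bases and 17.3% among all models. By mean CPM the top 418 had a median of 830 bases and 4.78% were under 300 bases. By either unit the leading models were shared between libraries only in part, since 277 of 418 were in the top 1% of all 3 libraries by TPM and 266 by CPM.

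Models under 600 bases carried most of the TPM and models of 600 bases or more carried most of the counts. The 7237 models under 300 bases took 31.3% ± 2.02 of TPM but 4.88% ± 0.426 of counts (SD, n = 3). The 12225 models of 300 to under 600 bases took 38.4% ± 0.997 of TPM and 24.1% ± 0.924 of counts. The 9873 models of 600 to under 1000 bases took 20.8% ± 1.26 of TPM and 36.3% ± 3.54 of counts, and those of 1000 to under 1500 bases 6.92% ± 0.757 and 20.5% ± 1.09. The 738 models of 3000 bases or more took 0.219% ± 0.0997 of TPM and 2.46% ± 1.05 of counts. Models under 300 bases, 17.3% of all, thus took a larger share than their number in TPM and a smaller one in counts.

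The most abundant model of each class stood lower in TPM as length rose, apart from the last class. A class maximum depends on class size, which ranged from 12225 models at 300 to under 600 bases to 738 in the longest class. TPM also has length as its divisor. After the shorter models named so far, g4153 (1514 bases, alone on its scaffold) led the class of 1500 to under 2000 bases with 1609, 890 and 1223 TPM in replicates 1, 2 and 3. Model g50536 (2643 bases) led the next class with 96.2, 195 and 250 TPM. Model g52002 (3663 bases) led the longest class with 160, 245 and 202 TPM. The ranges of these last 2 models overlapped, and both were lowest in replicate 1.

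Among the 21993 models with a mean count of at least 10, the level fell with length in TPM and rose with length in CPM. Spearman's rho between length and TPM across these models was −0.46, −0.41 and −0.39 in replicates 1, 2 and 3, and between length and CPM 0.16, 0.19 and 0.28. These are descriptions across models of the same 3 libraries. Length enters TPM as its divisor, so the 2 measures share it. The class median of TPM stood at 22.8 ± 4.57 under 300 bases, 9.23 ± 1.93 at 300 to under 600, 5.06 ± 1.32 at 600 to under 1000 and 1.74 ± 1.07 at 3000 bases or more (SD, n = 3). The median CPM over the same classes was 3.70 ± 0.726, 6.10 ± 1.17, 8.51 ± 1.94 and 19.9 ± 10.9. The count filter bears on this fall, because a short model needs a higher TPM to reach 10 counts. It kept 32.6% of models under 300 bases and 75.9% of those of 3000 bases or more. Among the 20230 models with a mean of at least 1 TPM, a filter chosen after the values were seen, the mean rho with TPM was −0.24.

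The difference between libraries was itself graded by length. Over 14259 models with at least 30 counts in each library, the median log2 ratio of TPM in replicate 3 over replicate 1 was 0.62. By length class it climbed from 0.21 under 300 bases through 0.47 at 600 to under 1000 bases and 0.92 at 1500 to under 2000 bases to 1.40 at 3000 bases or more. In the longest class 99.2% of models were higher in replicate 3 than in replicate 1, against 60.3% in the shortest. The ratio of replicate 3 over replicate 2 climbed likewise, from 0.51 to 1.36, and that of replicate 2 over replicate 1 was graded over a narrower range, with −0.30 in the shortest class, −0.02 at 1000 to under 1500 bases and 0.05 in the longest. A minimum of 30 counts is a higher bar in the shallow library. With models chosen instead by at least 10 CPM in replicates 1 and 2, a choice made after the values were seen, the ratio over replicate 1 ran from −0.14 in the shortest class to 1.32 in the longest. With TPM divided by TMM factors, which scale the libraries to each other, the median over all classes was 0.11 in place of 0.62. The ratio then ran from −0.29 to 0.89. The factors were computed from counts, so they are not matched to TPM. The sign for short models thus depended on selection and scaling, and the grading by length was present in each of these versions.

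The longest expressed models show the same in single values. Model g1524, of 15249 bases and the longest with a mean of at least 1 TPM, had 1103, 1116 and 1131 estimated counts in replicates 1, 2 and 3. Its count in the shallow replicate 3 was thus about as high as in the deeper libraries, and its TPM was 1.03, 1.10 and 4.67. Model g33777, of 11069 bases, had 1542, 1561 and 1450 counts, and 2.00, 2.13 and 8.30 TPM. In all 5 of the longest such models, of 10812 to 15249 bases, the TPM of replicate 3 was above those of both other libraries, by 3.53 to 5.52 times the lowest. The filter on the mean favours this outcome. Models g54638 (0.455, 0.584 and 2.51 TPM) and g55282 (0.539, 0.580 and 2.22 TPM) passed it only through replicate 3. The gap between listed and effective length in models of at least 1000 bases, which reflects the mean fragment length, was 223 bases in replicate 1, 216 in replicate 2 and 205 in replicate 3. Its part in the grading was not tested.

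**Figure D3:**
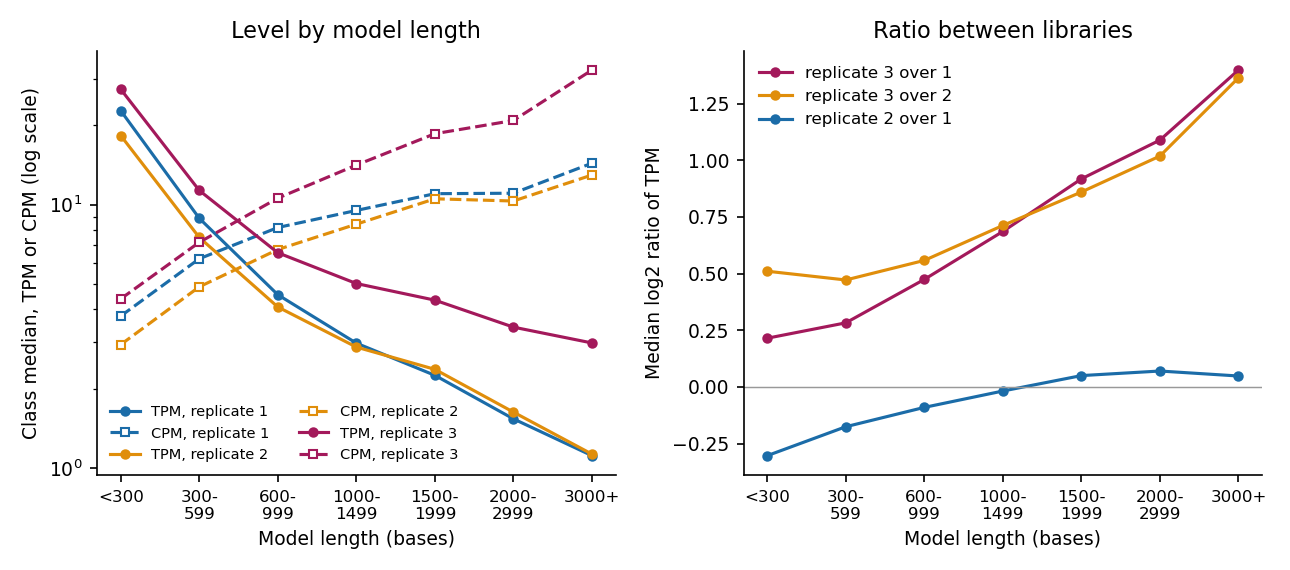
Left, the median TPM (solid) and CPM (dashed) of models with a mean count of at least 10 on a log axis by length class, with 1 colour per library. Right, the median log2 ratio of TPM between libraries over models with at least 30 counts in each, where the ratios with replicate 3 on top end at 1.40 and 1.36 in the longest class and the ratio of replicate 2 over replicate 1 stays between −0.30 and 0.07.

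No read was assigned to 12865 models in any of the 3 libraries, which is 30.8% of all models tested, and these are called silent below. Another 2676 models had counts in 1 library alone, 2447 in 2 libraries and 23841 in all 3. Counts of 0 were about as frequent in the shallow library, at 36.1%, 37.4% and 37.5% of models in replicates 1, 2 and 3. After the counts of replicates 1 and 2 were thinned to the total of replicate 3, they were at 0 for 40.5% and 42.0% of models, both above replicate 3. At an equal total of counts replicate 3 thus had the fewest models at 0. The libraries still differed in how their counts were spread over models, and the part of this in the difference was not tested. A count of 0 allows up to 3 counts. For the median silent model that limit was 0.160, 0.165 and 0.669 TPM in replicates 1, 2 and 3, and it covers counting error only. In replicate 1 the limit was above 1 TPM for 8.55% of silent models and in replicate 3 for 39.5%, so silence here says only that no count was assigned, not that a model is untranscribed. A count of 0 may also arise where reads are assigned to a similar model, which was not tested.

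Silent models were more frequent among short models. They made up 46.6% of models under 300 bases (3369 of 7237), 35.3% at 300 to under 600 bases, 26.5% at 600 to under 1000, 22.03% at 1000 to under 1500, 19.6% at 1500 to under 2000, 18.2% at 2000 to under 3000 and 15.7% of those of 3000 bases or more (116 of 738). Silent models had a median length of 483 bases, against 729 bases for models with counts. The limit of 3 counts moved with length as well. In replicate 1 its median was 0.791 TPM in the shortest class and 0.0123 TPM in the longest, and in replicate 3 it was 3.21 and 0.0542 TPM. By a threshold of 1 TPM in place of a count, chosen after the values were seen, the share below it in all 3 libraries was 52.6% in the shortest class, 43.1% to 43.8% in the 4 classes from 600 to under 3000 bases, and 36.9% in the longest. The gradient with length was thus flatter at a fixed TPM than at a fixed count.

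The identifiers carry a tag SP followed by 0 to 8, and the sources used here do not say what it means. The silent share was set against it after values had been seen. Of 23847 models tagged SP0, 46.7% were silent, and of 8949 tagged SP8, 3.39%. The values between descended in order, with 30.4% at SP1, 17.5% at SP2, 12.8% at SP3, 11.9% at SP4, 9.91% at SP5, 9.31% at SP6 and 7.28% at SP7. SP0 made up 86.5% of silent models and 43.9% of models with counts. It also made up 84.5% of the shortest length class and 26.2% of the longest, so tag and length moved together. Within SP0 the silent share was 52.7% under 300 bases and 45.1% at 3000 bases or more, with its lowest value, 35.9%, at 2000 to under 3000 bases. Within SP8 it lay between 1.51% and 4.33% in every length class. The fall with length over all models was therefore larger than that within SP0 or SP8. At the threshold of 1 TPM the order turned within SP0, where 58.96% of the shortest and 80.8% of the longest models were below it. The shares were 21.4% and 46.3% from SP1 to SP7, and 7.06% and 12.1% within SP8. Every tag group was thus higher in the longest class than in the shortest, while the share over all models was lower.

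**Figure D4:**
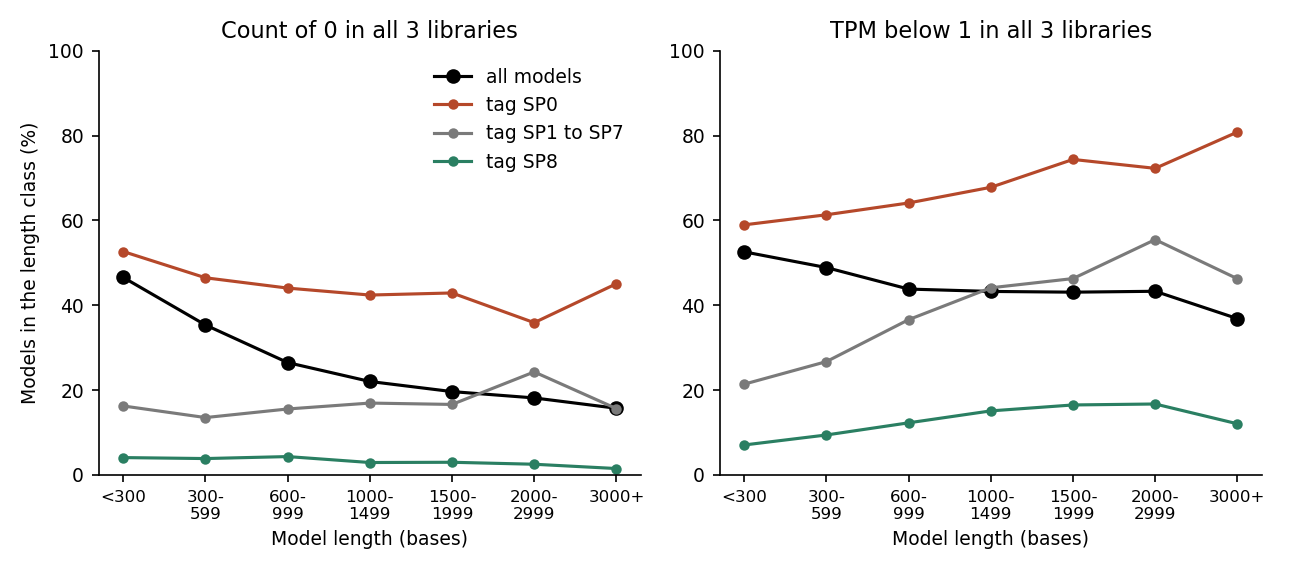
The share of models in each length class, in percent, with a count of 0 in all 3 libraries (left) or with less than 1 TPM in all 3 libraries (right), for all models and by SP tag. SP0 lies above SP8 in every class of both panels, and the fall over all models in the left panel is steeper than that within either tag.

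Long silent models were well covered by depth. The longest was g8068, of 7053 bases and alone on scaffold 4995, followed by g9230 (6109 bases), g29378 (6024 bases), g44422 (5702 bases) and g16590 (5439 bases). For g8068 a count of 0 allows 0.00617 TPM in replicate 1 and 0.0272 TPM in replicate 3. These 5 models had the tag SP0 or SP1, and each of the 5 longest models with a mean of at least 1 TPM had SP8. Among all models of 3000 bases or more, SP8 made up 53.9%, and 87 of the 116 silent ones had SP0. The named models thus follow the tags of their class. In all, 2560 of the 12494 models of at least 1000 bases were silent, a smaller share than the 30.8% over all models.

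The 41829 models lie on 23724 scaffolds, most of them with very few models. Scaffolds with a single model numbered 15168, and only 166 scaffolds held 10 or more. The silent share was 31.1% on single-model scaffolds, 31.8% on scaffolds with 2 to 4 models and 36.9% on those with 5 to 9. It was 18.3% on the 156 scaffolds with 10 to 49 models, 10.2% on the 8 with 50 to 99 and 13.4% on the 2 with 100 or more. The share thus did not fall steadily with scaffold size, but peaked at 5 to 9 models. Models on large scaffolds were longer, with a median of 1203 bases at 50 to 99 models and 558 bases on single-model scaffolds. When each class was given the length mix of all models, the silent shares became 29.98%, 31.9%, 38.6%, 23.7%, 13.9% and 18.0% in the same order of classes, with the peak in place and a smaller gap between small and large scaffolds.

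The tag SP also varied with scaffold size, SP0 making up 62.1% of models on single-model scaffolds and 22.01% on scaffolds of 100 or more. Within SP0 the silent share was 43.6% on single-model scaffolds, 58.3% at 5 to 9 models and 21.2% at 50 to 99. Among models tagged SP1 or higher it ranged only from 6.27% to 10.5% over all 6 classes. The peak at 5 to 9 models was thus seen within SP0 and not among models tagged SP1 or higher. Single-model scaffolds held 36.3% of the models and a smaller share of the counts, 26.7% ± 0.854 (SD, n = 3). The 156 scaffolds with 10 to 49 models held 6.89% of the models and 16.1% ± 0.697 of the counts.

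**Figure D5:**
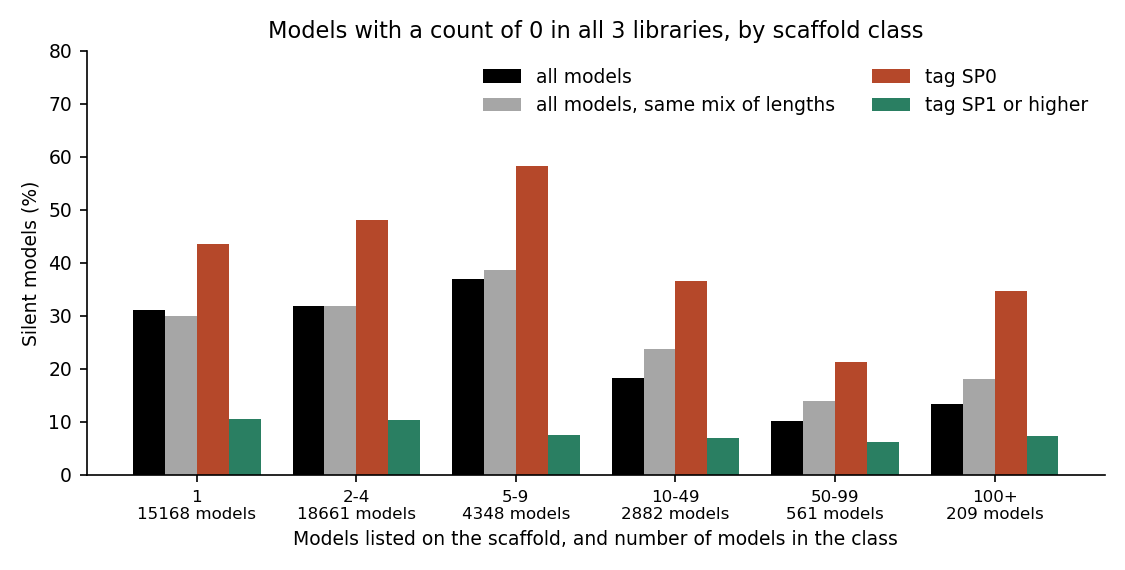
Bars give the percentage of silent models by number of models on the scaffold, for all models, for all models brought to the same mix of lengths, and for tags SP0 and SP1 or higher. The tallest bar is that of SP0 at 5 to 9 models, 58.3%, and the bars of SP1 or higher stay at or below 10.5%.

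Some scaffolds were silent throughout and some had counts on every model. Of 892 scaffolds with at least 5 models, 116 had no count on any model in any library, and 274 had no silent model. Among the 166 scaffolds with 10 or more models the median silent share was 13.3%, 23 had no silent model and 3 were silent throughout. These 3 were scaffold 286 with 17 of 17 models silent, scaffold 180 with 10 of 10 and scaffold 565 with 10 of 10. Scaffold 115 followed with 11 of 12 and scaffold 232 with 10 of 11. All models on these 5 scaffolds had the tag SP0, and the median model length per scaffold lay between 429 and 519.5 bases. At the other end, scaffold 19 had counts on all of its 43 models, as had scaffold 39 with 30, scaffold 43 with 22, scaffold 60 with 17 and scaffold 55 with 16. Scaffold 19 took 31761, 26184 and 8690 counts in replicates 1, 2 and 3, and 39 of its models reached a mean of 1 TPM. On scaffold 115 the counts were 44, 27.5 and 9, all on a single model. In the 19 scaffolds of this size with over 50% of their models silent, 93.3% of 224 models had SP0, against 31.6% of 3428 models on the other 147. Since SP0 made up 86.5% of all silent models, a high share of it on scaffolds picked for silence follows in part from that choice. Among the 10 scaffolds with the most models, the silent share was lowest on scaffold 14, with 3 of 50, and highest on scaffold 1, with 14 of 92 (15.2%).

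Silent models tended to be numbered next to each other. Taking each model and the next-numbered one on the same scaffold, 18105 pairs in all, the next model was silent after 66.9% of silent models (3632 of 5431) and after 14.5% of models with counts (1844 of 12674). When both models of a pair had SP0 the shares were 81.5% and 29.5%, and when both had SP1 or higher 25.4% and 6.15%. The difference was thus present within both tag groups. The longest unbroken run was the 17 models of scaffold 286, from g63536 to g63558, and runs of 11 lay on scaffolds 112 and 131.

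On scaffold 2, where the study places the missing *IBM1*, 15 of 105 models were silent. That is 14.3%, against 30.8% over all models. Among the 15 were g11142 (1380 bases) and g11143 (456 bases), the models on both sides of the gap. Both carried the tag SP8, as did 3 of the other silent models of this scaffold. Of the 12 models from g11138 to g11149 around the gap, 3 were silent, this pair among them. That share was below the 30.8% over all models but above the 14.3% of the whole scaffold. It rests on few models, chosen around a pair already known to be silent. The study named a primer for each of g11142 and g11143. These are shown to identify the silent pair, from the 5′ end in lower case with no letter marked.
ilu_s2_g11142_F1: atgtgtaccggttcttatctcgga
ilu_s2_g11143_R2: ggaagatggcacaccatatccat

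Some models differed between libraries far beyond the typical spread. Of the 20230 models with a mean of at least 1 TPM, 241 had an SD above 2 on the log2(TPM + 1) scale. Model g29002 (199 bases) had 1.10, 1254 and 1189 TPM in replicates 1, 2 and 3, which rested on 3, 3553 and 811 counts. Model g42553 (1815 bases) had 0.0176, 28.5 and 18.7 TPM, with 2 counts in replicate 1. Model g65278 (249 bases) had 222 and 210 TPM in replicates 2 and 3 and practically no count in replicate 1. It was at least 334-fold higher in replicate 2 than the limit of 3 counts in replicate 1. In these 3 models replicate 1 was the low library. Model g32955 (642 bases, scaffold 7) was low in replicate 2 instead, with 24.3, 0.0347 and 45.7 TPM and a single count there. Of the models with counts in 1 library alone, g9844 (889 bases) had the most, 419 in replicate 3, followed by g20503 with 312 in replicate 1 and g20608 with 227 in replicate 3. Of all 2676 such models, 257 reached 10 counts.

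Models that the study lists in the JmjC family, to which *IBM1* belongs, had means of 0.888 to 1.46 TPM, against a median of 0.833 TPM over all models. That median covers silent models and all lengths, so it is not matched to these long models. Model g32629 (3783 bases) had 1.03, 1.40 and 1.95 TPM in replicates 1, 2 and 3, g41930 (3342 bases) had 0.725, 0.770 and 1.76 TPM, and g21179 (2768 bases) had 0.348, 0.110 and 2.21 TPM. All 3 were highest in replicate 3, the library in which most long models were higher.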

How the data were processed

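RNA-seq libraries were made with a stranded kit, per the labels. The authors trimmed reads with Trimmomatic 0.33 and quantified each library with Kallisto 0.50.0 against the species transcriptome, without pooling replicates. The study took the genome and annotated sequences of this species from a public archive. The strand setting was not found in the sources used here. The deposited tables hold, per model, the length, the effective length, the estimated count (not normalized) and TPM, scaled by the authors to the same total in each library. Of the models, 17.7% had a count in some library that was not whole within 0.001, as arises when reads are split between similar models. Of the lengths, 75.5% were multiples of 3.

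Silent models had an estimated count of 0 in all 3 libraries. The limit for a count of 0 was 3 counts, converted to TPM with the effective length. Intervals and limits cover counting error only. CPM was computed from the estimated counts. For thinning, counts rounded to whole numbers were drawn without replacement (seed 11) to the total of the shallowest library. SDs are over 3 libraries and measure the spread between these samples, which may be technical. Spearman's rho was computed across models, with no p. Depth ranged from 5700441 to 22808396 estimated counts.

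Models were named by rule. These were the 10 highest by mean TPM and by mean CPM, the highest of each length class, the 5 longest silent, the 5 longest at 1 TPM or more, the 5 with the largest ratio between libraries (mean count of at least 100), the 3 with most counts in 1 library alone, the 3 JmjC models, g11142 and g11143. The 5 by ratio also needed some count in every library, so models with none in 1 library could not enter. For g65278 this was met by an estimate of only 8.34e-08 counts in replicate 1. Scaffolds named were the 10 with the most models and the 5 highest and 5 lowest by silent share among those with at least 10 models. Members, lists and rules were chosen with earlier results of these data known. Not every named model is described singly.

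Alternatives were other definitions of silence, thinning, CPM in place of TPM, other filters, listed in place of effective length, a pseudocount of 0.1 in place of 1, TMM factors (edgeR 4.0.16) and DESeq2 1.42.0 size factors from rounded counts, and each replicate left out. The TMM and DESeq2 factors were applied to TPM. Scripts ran in Python 3.11.15 with numpy 2.4.6 and pandas 2.3.3, and in R 4.3.3, and were tested on simulated data. The MethylC-seq files were not used here, and from the *R. raphanistrum* files only the number of listed transcripts was taken.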

Additional observations from a re-analysis of the deposited data

How the results depend on the processing

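The results are descriptions of 1 condition, so no call can be lost. Of 156 values recomputed under the alternatives, 137 moved by less than the spread between libraries or, for counts and the median SD, by less than 1.5 times. For the sharing measures and rho, leaving out 1 of 3 libraries cannot move the mean by as much as that spread. Those values were bound to be among the 137 and say nothing about stability. Many of the 156 were silent counts by length or scaffold class, which are parts of the same total and not separate checks. The bound of 1.5 times is also wide. It took in the 15672 models (37.5%) that had at most 3 counts in every library. With less than 1 TPM in all 3 libraries in place of a count of 0, chosen after the data were seen, 19461 models were counted in place of 12865. By length these were 4326 at 600 to under 1000 bases, 2955 at 1000 to under 1500, 1296 at 1500 to under 2000, 830 at 2000 to under 3000 and 272 at 3000 bases or more. By scaffold these were 7176 on single-model scaffolds, 1023 at 10 to 49 models, 137 at 50 to 99 and 56 at 100 or more. Estimated counts in place of TPM gave 54.0% on the top 1% of models, 320.3 models for 50% and 6234 models for 90%. The mean rho of length with level was 0.21 with CPM, against −0.42 with TPM. It was −0.29 over all models with a count in the library, −0.23 with listed in place of effective length, −0.34 without models under 300 bases and −0.24 at a mean of at least 1 TPM, a filter added later. The median SD between libraries was 0.25 without replicate 3, the low end of a range up to 0.48 when each library was left out. Leaving out a library gave 13639 to 13901 silent models and 152.5 to 228.5 models for 50% of TPM. The causes were not tested. No paired analysis was possible because 1 condition was described without a test, so no other group exists to pair with. Depth limits what can be said of short silent models, since 3 counts in models under 300 bases stood at a median of 0.791, 0.783 and 3.21 TPM in replicates 1, 2 and 3.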

Other observations

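Models g31485 and g44663 are both of 302 bases, each alone on its scaffold. Model g44663 had 9524, 6533 and 2946 TPM in replicates 1, 2 and 3, and g31485 had 4.18, 6182 and 5002 TPM, a ratio of 1478 between replicates 2 and 1. The summed CPM of the pair was 3079, 3902 and 2459. The share of g31485 in the summed counts was 0.0439%, 48.6% and 62.9%. Whether the models are similar in sequence or compete for reads was not tested, since transcript sequences were not used here. The pair was chosen after its values were seen.

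Other tags in the identifiers, which the sources used here do not explain, also went with the silent share. It was 52.1% of 7250 models tagged DN1, 44.8% of 8366 tagged DN2 and 20.4% of 26199 tagged DN3. Models with the letter c were silent in 32.4% of cases and those with the letter p in 26.0%, and lengths were multiples of 3 in 82.0% and 56.3% of them. By the number after CDS the silent share was 55.6% at 0 and 7.37% at 99 to 100. By the number after TE it was 63.8% at 0, 15.1% at 40 to 59 and 24.3% at 99 to 100. These comparisons were chosen after the values were seen.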
